A study of Mus musculus with 10 samples.

Results

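The T cell receptor complex and its proximal kinases were followed through 10 genes: the constant regions of the receptor chains (*Trac*, *Trbc1*, *Trbc2*), the CD3 and zeta chains (*Cd3d*, *Cd3e*, *Cd3g*, *Cd247*), the kinases *Lck* and *Zap70*, and the adaptor *Lat*. They were taken by symbol from the RNA-seq table, where all 10 of 10 symbols stood among 53974 genes, and all 10 passed the filter on low values that left 17555 genes (1 TPM or more in 3 or more of the 6 libraries, TPM being the relative abundance of a gene's transcripts within its library after correction for length). From the ATAC-seq comparison table, regions within 1000 bp of an end of these genes were taken, which gave 2 of 16600 regions. RNA was measured in 3 libraries labelled WT and 3 labelled cKO, and open chromatin in 2 and 2. All libraries came from retinal cells of C57BL/6 mice aged 8 to 10 weeks, sorted as positive for Thy1.2 and negative for the dead-cell stain DAPI 3 days after optic nerve crush (ONC). Every animal carried floxed alleles of *Arid1a*, a subunit of the SWI/SNF chromatin remodeler. The group called WT (genotype Arid1a fl/fl) had received AAV2-GFP in the vitreous, and the group called cKO (Arid1a del/del) AAV2-Cre, in both cases 2 weeks before ONC, so WT here is an injured, virus-injected floxed control. Cre was driven by the CMV promoter, which is not specific to RGCs, in whichever cells the virus reached, and 4 to 5 retinas were pooled for each sample.

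The alpha and beta chains of the T cell receptor recognise peptide held by MHC molecules but have no signalling parts of their own. They are carried to the surface with CD3 gamma, delta and epsilon and the zeta chain, whose tyrosine motifs are phosphorylated by Lck. Zap70 docks on the phosphorylated chains and phosphorylates Lat, the membrane scaffold on which further adaptors and enzymes assemble. The uninjured retina holds few T cells. In mice, Thy1 is a surface protein of T cells as well as of retinal ganglion cells (RGCs), so a sort on Thy1.2 does not separate them.

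RNA of *Arid1a* itself was not lower in the libraries labelled cKO. It was at 18.8, 11.7 and 14.1 TPM in WT replicates 1 to 3 and at 18.8, 27.9 and 25.0 TPM in cKO replicates 1 to 3 (log2 fold change 0.66, SE 0.28, adjusted p = 0.274 from limma). Which exons are floxed is not given in the sources used here, and a TPM value of the whole gene also counts transcripts that lack them, so these values do not check the deletion itself. Directions are given for "the library labelled WT" or "the library labelled cKO", and WT and cKO below stand for these labels. The RGC label of the sort was also checked. *Pou4f2*, a transcription factor of RGCs, was listed at 0 in every library except cKO replicate 3 (0.143 TPM), and *Rbpms*, an RNA-binding protein used to mark RGCs, lay between 1.82 and 6.43 TPM. Some genes of the same RGC list were higher over the 6 libraries. They were *Isl1*, a transcription factor also found in other retinal neurons (51.9 to 104 TPM), *Gap43*, a growth cone protein (24.3 to 67.9 TPM), and *Nefl*, the neurofilament light chain (5.47 to 20.6 TPM). The rest of the list, apart from *Thy1*, was low. Means over the 6 libraries were 0.975 (*Slc17a6*), 1.40 (*Pou4f1*), 2.84 (*Sncg*), 3.01 (*Nefh*), 4.11 (*Nefm*) and 5.05 TPM (*Stmn2*). *Thy1* was at 88.5, 51.9 and 62.7 TPM in the WT libraries and at 106, 94.4 and 129 TPM in the cKO libraries (log2 fold change 0.71, SE 0.26, adjusted p = 0.223 from limma). The antigen of the sort thus had the higher mean in the libraries labelled cKO.

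All 10 genes had lower mean RNA in the libraries labelled cKO, with log2 fold changes of TPM + 1 between -2.41 and -1.39 and a median of -2.03, beside a median of 0.16 over all genes tested. None of the 10 passed an adjusted p of 0.05 in limma, a threshold that 0% of genes tested passed as lower, while 0.0057% passed as higher. At an unadjusted p under 0.05 in limma, 9 of 10 were lower, beside 6.45% of all genes tested, and 0 of 10 were higher, beside 11.9%. In 8 of 10 every cKO library lay below every WT library, beside 7.18% of all genes, and in 0 of 10 every cKO library lay above, beside 18.7%. Only 3.54% of genes tested had a log2 fold change as low as that of *Cd3g*, which had the smallest difference among the 10. In bulk samples such as these, fewer cells of a type and less RNA per cell cannot be told apart. The libraries are pools of retinas, and each p-value measures the spread between these pools.

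**Figure D1:**
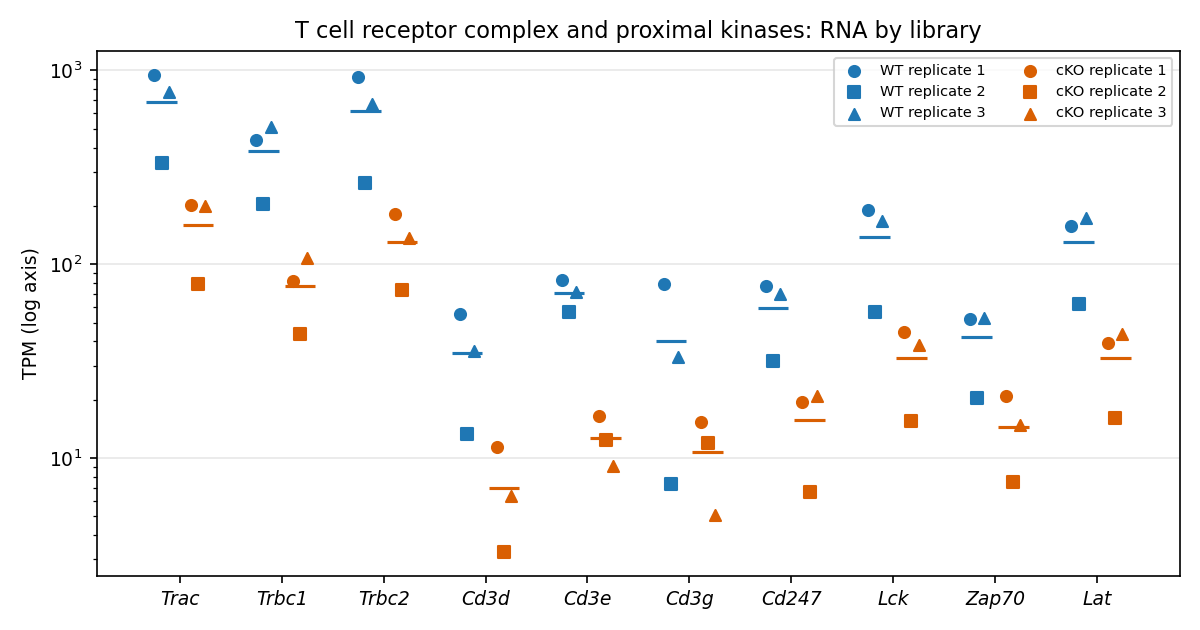
TPM of the 10 genes in each of the 6 RNA-seq libraries, on a log axis, with blue for the libraries labelled WT, orange for those labelled cKO, 1 symbol shape for each replicate number and a bar at the group mean (n = 3). For 8 of 10 genes all orange points lie below all blue points, the groups overlap for *Cd3g* and *Zap70*, and replicate 2 (squares) is the lowest WT library throughout.

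Among the receptor chains, *Trac*, the constant region of the alpha chain (chr14:54220521-54224198, GRCm38), was at 952, 334 and 771 TPM in WT replicates 1 to 3 and at 203, 79.2 and 199 TPM in cKO replicates 1 to 3. The groups did not overlap, and replicate 2 was the low library under both labels. The group means were 685 ± 318 TPM and 160.3 ± 70.3 TPM (SD, n = 3 each), with a log2 fold change of -2.08 (SE 0.51, adjusted p = 0.134, limma).

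The beta chain can carry either of a pair of constant regions that lie side by side on chromosome 6. *Trbc1* (chr6:41538219-41539665) was at 436, 204 and 510.2 TPM in the WT libraries and at 82.3, 43.5 and 107 TPM in the cKO libraries, a log2 fold change of -2.28 (SE 0.45, adjusted p = 0.124, limma). *Trbc2* (chr6:41546730-41548181) was at 923, 263 and 673 TPM in the WT libraries and at 181, 73.3 and 137 TPM in the cKO libraries, a log2 fold change of -2.15 (SE 0.53, adjusted p = 0.134, limma). Neither gene had overlapping groups, and the lowest WT library was in each case above the highest cKO library by 1.90 times for *Trbc1* and 1.45 times for *Trbc2*. The 2 sequences are nearly identical, so how reads were divided between them is uncertain. Their sum does not depend on that division, and it was 1003 ± 472 TPM in WT and 208 ± 79.8 TPM in cKO (SD, n = 3 each), 4.82 times higher in WT. The ratio of *Trbc1* to *Trbc2* was 0.472, 0.777 and 0.758 in the WT libraries and 0.454, 0.593 and 0.784 in the cKO libraries (two-sided exact permutation test, p = 0.7).

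*Cd3e*, which pairs with both CD3 gamma and CD3 delta, had the largest difference of the 10 and the smallest standard error. It was at 83.1, 56.7 and 72.2 TPM in the WT libraries and at 16.5, 12.4 and 9.13 TPM in the cKO libraries. The lowest WT library stood 3.43 times above the highest cKO library, the widest such gap among these genes. The means were 70.7 ± 13.3 TPM and 12.7 ± 3.70 TPM (SD, n = 3 each), 5.57 times apart, with a log2 fold change of -2.41 (SE 0.29, adjusted p = 0.124 and unadjusted p = 6.19e-05, limma).

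*Cd3d*, the CD3 delta chain, was at 55.7, 13.4 and 35.7 TPM in the WT libraries and at 11.5, 3.29 and 6.39 TPM in the cKO libraries, a log2 fold change of -2.08 (SE 0.59, adjusted p = 0.155, limma). Its groups did not overlap, but WT replicate 2 exceeded cKO replicate 1 by only 1.17 times. *Cd3g*, the CD3 gamma chain, was at 79.5, 7.33 and 33.3 TPM in the WT libraries and at 15.4, 11.9 and 5.07 TPM in the cKO libraries. Here the groups overlapped, because WT replicate 2 lay below cKO replicates 1 and 2. The log2 fold change was -1.39 (SE 0.82, adjusted p = 0.405, limma), was -2.27 without WT replicate 2, and was -0.63 without WT replicate 1 and -0.96 without cKO replicate 3. *Cd3d*, *Cd3e* and *Cd3g* lie together on chromosome 9, between 44969572 and 45009663.

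*Cd247* encodes the zeta chain, which carries more of the tyrosine motifs than any other chain of the complex and is shared with NK cell receptors. Its RNA was at 76.8, 31.8 and 70.2 TPM in the WT libraries and at 19.4, 6.65 and 21.0 TPM in the cKO libraries. No cKO library reached a WT library, and the log2 fold change was -1.91 (SE 0.51, adjusted p = 0.148, limma).

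Downstream of the chains, *Lck*, the Src family kinase bound to the tails of CD4 and CD8, was at 191, 56.7 and 167 TPM in the WT libraries and at 44.7, 15.6 and 38.3 TPM in the cKO libraries. Its groups were separate, with a log2 fold change of -1.99 (SE 0.57, adjusted p = 0.155, limma). *Zap70*, the Syk family kinase recruited to the phosphorylated chains, was at 52.5, 20.5 and 52.9 TPM in the WT libraries and at 20.9, 7.56 and 14.8 TPM in the cKO libraries. The groups touched, since WT replicate 2 and cKO replicate 1 were nearly equal, and the log2 fold change was -1.46 (SE 0.49, adjusted p = 0.192, limma). *Lat* was at 158, 62.4 and 172 TPM in the WT libraries and at 39.4, 16.1 and 43.5 TPM in the cKO libraries, with no overlap and a log2 fold change of -1.94 (SE 0.51, adjusted p = 0.146, limma).

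**Figure D2:**
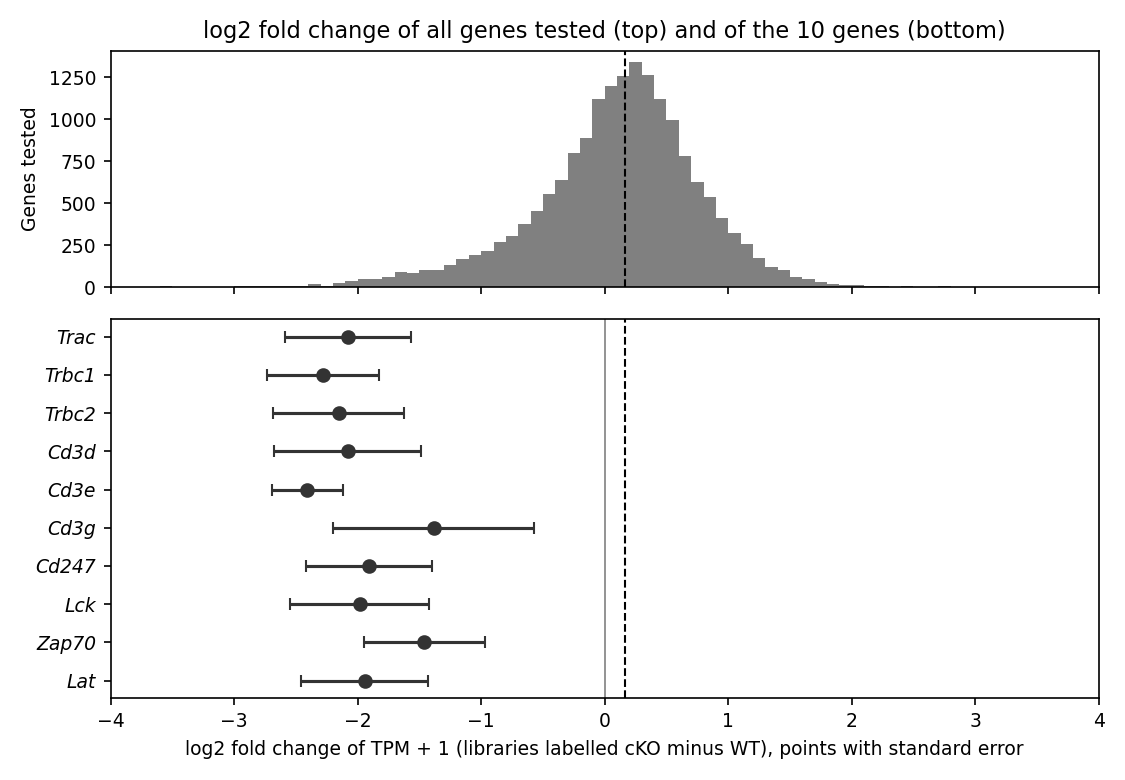
Top, histogram of the log2 fold change of TPM + 1 (cKO minus WT labels) over the 17555 genes tested, with the number of genes on the vertical axis and a dashed line at their median of 0.16. Bottom, the same quantity for the 10 genes with bars of 1 standard error (limma, 3 against 3 libraries), all of which lie between -2.41 and -1.39, left of the bulk of genes, with the widest bar for *Cd3g*.

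Set side by side per length, as TPM allows, the receptor constant regions were the most abundant of the 10 transcripts. Mean TPM over the WT libraries ran from *Trac* (685) and *Trbc2* (620) through *Trbc1* (383), *Lck* (138), *Lat* (131), *Cd3e* (70.7), *Cd247* (59.6), *Zap70* (42.0) and *Cd3g* (40.1) to *Cd3d* (34.9). The gaps between *Trac*, *Trbc2* and *Trbc1*, between *Lck* and *Lat*, and between any neighbours from *Cd3e* down were smaller than the SD of the higher gene of the pair. The sum of all 10 was 3007, 1049.6 and 2558 TPM in WT replicates 1 to 3 and 634, 269.5 and 582 TPM in cKO replicates 1 to 3, which placed the WT mean 4.45 times above the cKO mean.

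Replicate 2 was the lowest WT library for all 10 genes, at between 13.0% (*Cd3g*) and 73.0% (*Cd3e*) of the mean of the other WT libraries. Over all genes tested the median of that percentage was 112%. Replicate 2 was also the lowest cKO library for 8 genes, the exceptions being *Cd3e* and *Cd3g*, for which replicate 3 was lowest. Between libraries of the same number, 29 of 30 differences (10 genes in 3 pairs) were below 0. The exception was *Cd3g* in the pair numbered 2, with a log2 difference of 0.63.

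The proportions among the 10 transcripts were examined as ratios to *Cd3e* within each library. The log2 ratio was higher in cKO than in WT for all 9 other genes, by 0.21 for *Trbc1*, 0.24 for *Cd3d* and up to 0.97 for *Zap70* and 1.04 for *Cd3g*. Two-sided exact permutation tests gave p between 0.3 and 0.9, where the smallest p that 3 against 3 allows is 0.1. Between same-numbered libraries 5 of the 9 ratios were higher in cKO in all 3 pairs (*Trac*, *Cd3d*, *Lck*, *Zap70*, *Lat*), each with p = 0.25 in an exact test over the signs of the pair differences, the smallest that 3 pairs allow. Neither design could reach p under 0.05. For *Zap70* the ratio was 0.631, 0.362 and 0.732 in the WT libraries and 1.26, 0.609 and 1.63 in the cKO libraries. The groups overlapped, as cKO replicate 2 lay below WT replicates 1 and 3, while the log2 differences within the numbered pairs were 1.00, 0.75 and 1.15. All of these ratios share *Cd3e*, so they are not independent of each other. *Cd3e* also had the largest fall of the 10 genes. With it as the denominator all 9 mean differences had to be higher in cKO, and the counts within pairs lean the same way. The shared direction is therefore not a result about the proportions.

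Variable segments of the receptor genes were counted apart from the constant regions, though both lie on the same transcripts. Many T cell clones can share a segment, so a count of segments is not a count of clones. Of 159 segments in the table (Trav, Trbv, Trdv, Trgv and Tcrg-V), 96, 18 and 67 reached 1 TPM in WT replicates 1 to 3, and 58, 40 and 28 in cKO replicates 1 to 3. WT replicate 2 held the fewest of all 6 libraries and WT replicate 1 the most, so the groups overlapped fully (60.3 ± 39.4 against 42.0 ± 15.1, SD, n = 3 each). The summed TPM of the segments was 1061, 106 and 667 in the WT libraries and 235, 154 and 222 in the cKO libraries. For this sum as well, WT replicate 2 lay below every cKO library, unlike its sum over the 10 genes. The Trav family, with 111 segments, had 68, 7 and 46 at 1 TPM or more in the WT libraries and 39, 21 and 16 in the cKO libraries. All 84 joining and diversity segments were listed at 0 in every library. These segments are much shorter than the sequenced reads, so a value of 0 is not read here as a lack of rearranged transcripts. Sequencing depth is unknown for a TPM table, so how far a count of segments follows depth cannot be stated.

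The coreceptors and costimulatory receptors that work beside the complex were lower as well. Of 9 such genes (*Cd4*, *Cd8a*, *Cd8b1*, *Cd2*, *Cd5*, *Cd6*, *Cd28*, *Icos*, *Ptprc*), 9 had a negative and 0 a positive log2 fold change, with a median of -1.91, and 8 were lower at an unadjusted p under 0.05 (limma), a rule that 6.45% of all genes tested met as lower and 11.9% as higher. Without WT replicate 1 that number was 4 (6.74% of all genes). It was 5 without WT replicate 3 (5.13%) or without cKO replicate 2 (3.97%). *Cd4*, the coreceptor for MHC class II, was at 119, 42.4 and 92.7 TPM in the WT libraries and at 19.6, 9.02 and 43.8 TPM in the cKO libraries. *Cd2*, an adhesion receptor of T and NK cells, had means of 155 ± 63.9 TPM in WT and 33.9 ± 15.5 TPM in cKO, and *Ptprc*, the phosphatase CD45 that primes Lck and is found on all leukocytes, of 201 ± 110 TPM and 65.6 ± 16.6 TPM (SD, n = 3 each). The ratio of *Cd4* to *Cd8a* was 2.18, 1.88 and 1.37 in the WT libraries and 0.992, 2.19 and 5.76 in the cKO libraries, with no order between the labels (two-sided exact permutation test, p = 0.7).

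Next in the pathway, 17 downstream kinases and adaptors had a median log2 fold change of -1.15, with 15 lower and 2 higher, and 10 of the lower genes were at an unadjusted p under 0.05 (limma), beside 6.45% of all genes. The number was 5 without WT replicate 1 (6.74% of all genes) or cKO replicate 2 (3.97%) and 6 without WT replicate 3 (5.13%). Among them *Fyb*, an adaptor linking the receptor to integrins, had means of 115 ± 57.5 TPM in WT and 42.2 ± 12.8 TPM in cKO (SD, n = 3 each). *Lcp2*, the adaptor SLP-76 that assembles with Lat, had means of 77.0 ± 32.4 TPM and 22.3 ± 5.71 TPM. *Nck1*, a widely expressed adaptor, had means of 70.9 ± 8.80 TPM and 75.5 ± 12.9 TPM, a difference within the spread. Of 15 negative regulators, 13 were lower and 2 higher with a median of -0.89, and 8 were lower at an unadjusted p under 0.05, among them *Ptpn22* (94.8 ± 56.5 TPM and 25.9 ± 9.05 TPM), a phosphatase that dephosphorylates Lck and Zap70, and *Ptpn6* (94.1 ± 36.7 TPM and 35.4 ± 15.5 TPM), the phosphatase SHP-1. The next most abundant regulator, *Dgkz*, a kinase that removes diacylglycerol, was at 51.6 ± 20.5 TPM and 31.2 ± 3.04 TPM (unadjusted p = 0.117, limma). The 8 lower regulators became 4 without WT replicate 3 (5.13% of all genes) and 5 without WT replicate 1 (6.74%) or cKO replicate 2 (3.97%).

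The calcium, NFAT, NF-kB and MAPK branches use genes that many cell types share. Of 23 listed genes 22 were tested (not *Itpr3*), 13 of them lower and 9 higher, with a median log2 fold change of -0.23. At an unadjusted p under 0.05 (limma) 1 was lower and 2 were higher, beside 6.45% and 11.9% of all genes. The 2 higher calls fell to 0 with the replicate number as a block, with scaling by the median of ratios, without the trend, and on leaving out any library but cKO replicate 3, where 1 was left. The lower calls were 2 with the block (8.52% of all genes) and 4 with that scaling (9.55%). The lower gene was *Nfatc1*, a transcription factor activated by calcineurin (21.4 ± 9.33 TPM in WT, 7.45 ± 1.45 TPM in cKO). Among the higher calls, *Ppp3r1*, the regulatory subunit of calcineurin, was at 107 ± 10.0 TPM in WT and 157 ± 25.6 TPM in cKO. The 4 lists of pathway genes held 9, 17, 15 and 22 tested genes. Of these, 27 in all were lower at an unadjusted p under 0.05 (limma), beside 6.45% of all genes. That count fell to 15 without WT replicate 1 (6.74% of all genes), 16 without cKO replicate 2 (3.97%) and 17 without WT replicate 3 (5.13%). None of these genes passed an adjusted p of 0.05 in limma.

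Genes of the gamma-delta and pre-T cell receptor were mostly at the edge of detection. Of 12 listed, 9 were in the table and 3 were tested, all 3 lower with a median of -0.66, which was -1.28 without WT replicate 2 and -0.30 without cKO replicate 2. *Tcrg-C4*, a constant region of the gamma chain, was at 13.2 ± 6.37 TPM in WT and 5.14 ± 2.31 TPM in cKO (unadjusted p = 0.0437, limma). It was the only gene of the list called, beside 6.45% of all genes. No gene of the list was called without WT replicate 1, WT replicate 3, cKO replicate 1 or cKO replicate 2. Without WT replicate 2, 3 were called (7.9% of all genes), and 2 with the replicate block (8.52%). *Tcrg-C2* was at 22.0 ± 13.1 TPM and 12.7 ± 6.84 TPM (SD, n = 3 each). These constant regions resemble each other, so their division of reads is uncertain. Transcription factors of the T lineage were lower in 9 of 9 cases (median -1.51). Of the 9, 6 had an unadjusted p under 0.05 (limma), beside 6.45% of all genes tested. *Ets1*, a factor that binds promoters of T cell genes, was at 61.9, 61.2 and 45.5 TPM in the WT libraries and at 11.6, 7.21 and 8.43 TPM in the cKO libraries (log2 fold change -2.52, adjusted p = 0.0856, limma). Unlike the 10 genes, it was not low in WT replicate 2. *Tcf7*, which sustains naive and memory T cells, was at 109, 27.2 and 111 TPM in WT and at 23.8, 14.9 and 33.2 TPM in cKO.

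Markers of other cell types were summed in the same libraries. The sums did not overlap between the labels for NK cells, myeloid cells and rods, and overlapped for the other cell types below. For NK cells 9 of 9 tested genes were lower (median log2 fold change -1.87). Of these, 8 had an unadjusted p under 0.05 (limma), which 6.45% of all genes tested reached as lower. The summed TPM of the list ranged from 190 to 553 in WT and from 46.7 to 130 in cKO. Its most abundant genes were *Nkg7*, *Gzmb* and *Klrd1*, with WT means of 134, 61.0 and 48.2 TPM. T cells can express these as well, so the list does not separate NK cells from T cells. For B cells 6 of 8 were lower, 3 of them at an unadjusted p under 0.05 (limma), beside 6.45% of all genes tested. With the replicate block 5 were called (8.52% of all genes), and 6 without WT replicate 2 (7.9%). Among the lower genes *Cd79b*, part of the B cell receptor, was at 27.9 ± 11.6 TPM in WT and 4.29 ± 1.67 TPM in cKO. *Ebf1*, a B lineage factor, went the other way, at 20.7 ± 5.22 TPM and 45.9 ± 5.17 TPM (unadjusted p = 0.00306, limma). The summed TPM of the list was 48.5 to 142 in WT and 62.8 to 67.2 in cKO. *Ebf1* alone gave 43.5, 51.8 and 42.3 TPM in cKO replicates 1 to 3, the larger part of each sum. The overlap of the B cell sums thus depends on this gene. For myeloid cells and microglia 11 of 12 were lower, with a median log2 fold change of -0.70. Of the 12, 5 were lower at an unadjusted p under 0.05 (limma), beside 6.45% of all genes tested. The summed TPM was 2203 to 3655 in WT and 1004 to 1338 in cKO. Most of each sum came from *Lyz2*, *C1qa* and *C1qb*, so the separation of the sums rests mainly on these genes. Rod photoreceptor genes had higher values in cKO, 8 of 8 of them with a median of 1.40, and their sum ranged from 12300 to 17163 TPM in WT and from 25059 to 47812 TPM in cKO. RGC genes had a median of 0.06 over 10 tested (-0.05 with scaling by the median of ratios, and -0.19 to 0.51 with 1 library left out) and sums of 186 to 269 TPM in WT and 246 to 281 TPM in cKO. Of 8 endothelial and pericyte genes 5 were tested, all lower, with a median of -1.09, or -0.52 without WT replicate 3. The summed TPM of the list was 384 to 1044 in WT and 273 to 771 in cKO, most of it from *Kdr* and *Rgs5*. Mueller glia and astrocyte genes had a median of -0.53 (6 of 6 lower, 3406 to 7046 and 2719 to 6886 TPM). Erythrocyte genes had a median of -0.95 (5 of 5 lower, 0 at an unadjusted p under 0.05 in limma, 94.3 to 1353 and 130 to 234 TPM), which was -0.03 without WT replicate 3 and -1.92 without WT replicate 2. Mast cell and platelet genes had a median of -0.16 (3 of 3 tested, 14.1 to 32.1 and 16.3 to 21.3 TPM), with *Mcpt4*, a mast cell protease, and *Gp9*, a platelet glycoprotein, listed at 0 in every library. Of 8 housekeeping genes 7 were higher and 1 lower, with a median of 0.39. The part of these cell types in the values of the 10 genes was not tested.

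**Figure D3:**
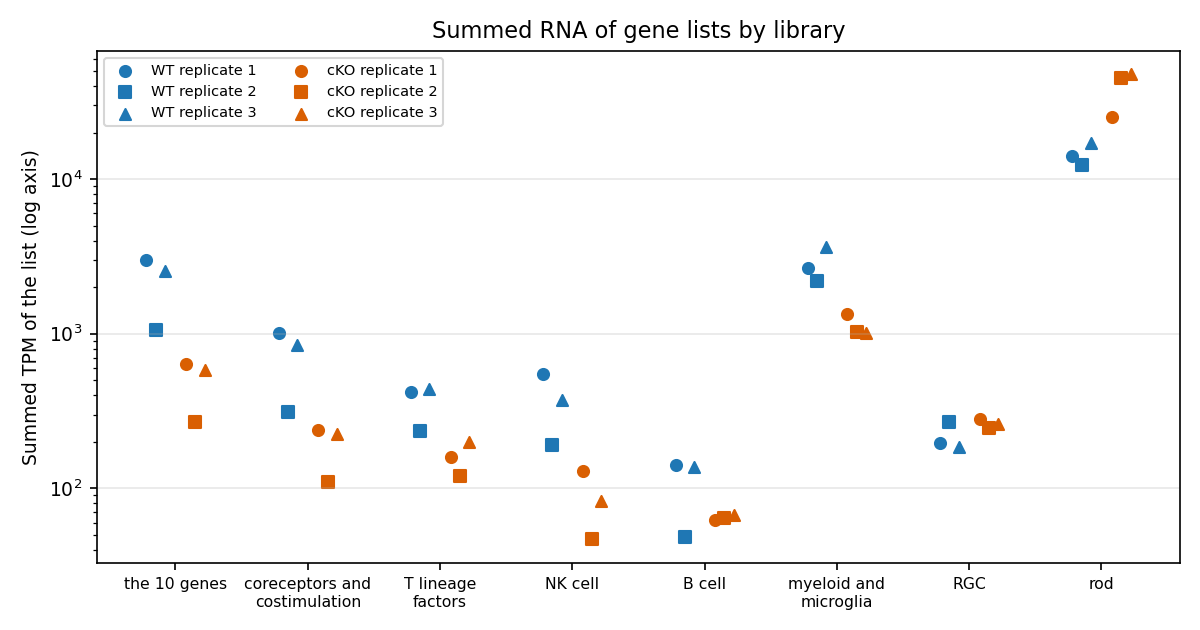
Summed TPM of the 10 genes and of 7 gene lists in each RNA-seq library, on a log axis, with blue for the libraries labelled WT, orange for cKO and 1 symbol shape for each replicate number. The sums of the 10 genes, the coreceptors, the T lineage factors, NK cells and myeloid cells differ in the same direction between label means, WT replicate 2 (blue square) is the lowest WT library in each of these, and the rod list is the one with all cKO libraries above all WT libraries.

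The genes outside the complex whose pattern was most like that of the 10 were ranked by Pearson r of log2(TPM + 1) with the mean profile over the 6 libraries. They were *Sp100* (r = 0.999), *Cacna1s*, *Btla*, *Sp140*, *Cd69*, *Sp110*, *Gpr183*, *Lcp2*, *Ifi214* and *Ms4a6b* (r = 0.996), all of which were also low in WT replicate 2 relative to the other WT libraries. The 6 points fall into groups by label, and 673 genes (3.83% of those tested) had r of at least 0.9, so the order among the leading genes is a description only. Among the 10 themselves, r with the mean of the other genes was highest for *Trbc2* (0.999) and lowest for *Cd3e* (0.881) and *Cd3g* (0.742).

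ATAC-seq, which cuts DNA where chromatin is open, was read at the ends of the same genes. In the table of 16600 regions the authors give the log2 of the mean normalised reads for each label. Single libraries have no values there, and neither an error nor a test could be given. Regions lay within 1000 bp of an end of 2 of 10 genes, *Cd3e* and *Cd3d*, beside 51.5% of the genes tested with a known position. The *Cd3e* region (chr9:45009226-45010414) covered the start of the gene and had a log2 value of 4.38 in WT and 3.33 in cKO, 20.8 and 10.1 normalised reads. Its log2 difference of -1.05 was smaller in size than the median of all regions (-1.57) and than that of regions at gene ends (-2.58), and 92.6% of the latter had a lower difference. The *Cd3d* region (chr9:44986216-44986780) lay inside the gene, 272 bp from its far end, and had log2 values of 4.28 and 2.36, 19.4 and 5.13 normalised reads. Its log2 difference was -1.92, and 74.3% of gene-end regions had a lower one. Relative to the median of all regions the difference was 0.52 at *Cd3e* and -0.35 at *Cd3d*, so *Cd3e* changed sign on that scale. Both differences lay above the median of regions at gene ends.

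Regions just outside the distance were found for 1 further gene within 3000 bp. At *Lck* a region 1610 bp before the gene start (chr4:129575251-129575636) had log2 values of 3.83 in WT and 1.57 in cKO, a difference of -2.26. A region inside *Cd247*, 19989 bp from an end (chr1:165850476-165851164), had log2 values of 2.84 and 2.56, a difference of -0.28. Beyond *Trac*, at 3175 bp from its end (chr14:54227373-54228394), the log2 values were 5.38 and 3.33, a difference of -2.05.

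Peak lists were given for each library as positions alone. They held 76522 and 42265 peaks in WT replicates 1 and 2, and 55902 and 68317 in cKO replicates 1 and 2. In WT replicate 1, 3 of 10 genes had a peak within 1000 bp of an end (*Cd3d*, *Cd3e*, *Zap70*), beside 65.1% of genes tested, and in WT replicate 2, 3 of 10 did (*Cd3d*, *Cd3e*, *Cd247*), beside 58.2%. In cKO replicate 1 this held for 1 gene (*Cd3d*, 13.6% of genes tested) and in cKO replicate 2 for 1 gene (*Trbc2*, 13.9%). Overlapping peaks in both WT libraries were found at 2 genes, *Cd3d* and *Cd3e*, beside 49.1% of genes tested, and in both cKO libraries at 0 genes, beside 0.458%. Across all genes, peaks at gene ends thus seldom recurred between the cKO libraries, though their lists were not short. The cKO peaks at *Cd3d* and *Trbc2* each stood in 1 library, and the reason for the low recurrence was not tested. Where the overlap had to cover 50% of each peak, the counts were 1 (*Cd3d*; 38% of genes tested) and 0 (0.174%). A peak in any WT library was found at 4 genes (71.8% of genes tested), and in any cKO library at 2 (25.2%). The ends of *Cd3g*, *Lat*, *Lck*, *Trac* and *Trbc1* had no peak in any of the 4 libraries.

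**Figure D4:**
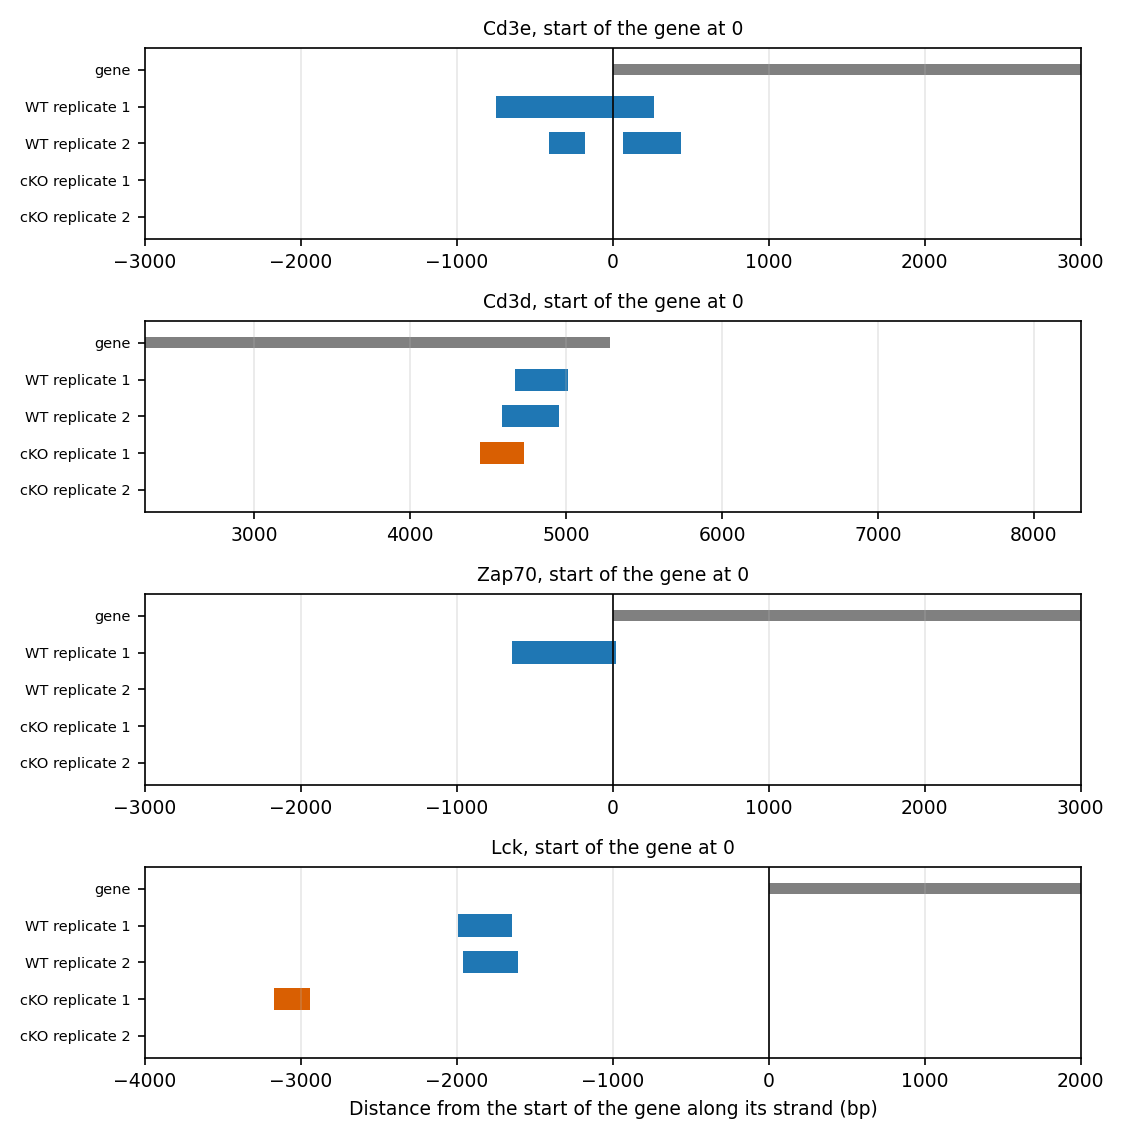
Peaks of the 4 ATAC-seq libraries near *Cd3e*, *Cd3d*, *Zap70* and *Lck*, drawn to scale as bars against the distance in bp from the gene start along its strand, with the gene in grey, WT libraries in blue and cKO libraries in orange. WT peaks cover the start of *Cd3e* in replicate 1 and flank it in replicate 2, both WT libraries and cKO replicate 1 have a peak inside the far end of *Cd3d*, and the WT peaks before *Lck* lie 1610 bp or more from its start.

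Promoter sequences (windows that cross a transcript start, from RefSeq, GRCm38.p6) were matched by symbol for 7 of 10 genes, in 10 windows. Of these, 6 cover the annotated gene start and 4 lie inside the gene, from 2467 to 16936 bp from its start (the single window of *Cd247*, 2 of *Zap70* and 1 of *Lck*). Those of *Cd3e*, *Zap70* and *Lck* are shown because peaks lay at or near them: the *Cd3e* window (chr9:45009562-45009861, minus strand) lies within the *Cd3e* region, the *Zap70* window (chr1:36761548-36761847, plus strand) overlaps the peak of WT replicate 1 (chr1:36761148-36761818), and the upstream *Lck* window (chr4:129573592-129573891, minus strand) is the one nearer to the region at *Lck*. Capitals mark CAGGAA or its reverse complement TTCCTG, letters bound by ETS factors, in whichever orientation they stand.
Cd3e: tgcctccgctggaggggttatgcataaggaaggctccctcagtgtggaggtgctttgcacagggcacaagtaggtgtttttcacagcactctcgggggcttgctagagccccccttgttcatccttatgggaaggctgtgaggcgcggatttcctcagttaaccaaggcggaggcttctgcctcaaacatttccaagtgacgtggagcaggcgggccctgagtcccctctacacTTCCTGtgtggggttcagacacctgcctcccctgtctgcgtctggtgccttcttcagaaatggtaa
Zap70: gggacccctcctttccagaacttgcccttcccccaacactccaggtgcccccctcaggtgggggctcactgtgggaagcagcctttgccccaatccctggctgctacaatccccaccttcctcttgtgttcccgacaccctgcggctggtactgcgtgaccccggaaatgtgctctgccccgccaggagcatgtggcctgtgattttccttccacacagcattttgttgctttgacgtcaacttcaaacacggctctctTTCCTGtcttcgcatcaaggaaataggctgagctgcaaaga
Lck: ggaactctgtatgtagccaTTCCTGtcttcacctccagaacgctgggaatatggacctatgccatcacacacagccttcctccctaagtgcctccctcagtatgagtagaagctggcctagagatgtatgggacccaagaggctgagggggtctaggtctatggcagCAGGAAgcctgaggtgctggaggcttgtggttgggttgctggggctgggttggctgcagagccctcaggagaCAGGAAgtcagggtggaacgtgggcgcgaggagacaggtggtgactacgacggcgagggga
The motif CAGGAA, on either strand, stood in 8 of the 10 windows and in 6 of the 7 genes with a window (not in *Cd3g*), and in 30.6% of all 32851 RefSeq windows. Of the 6 windows that cover the gene start, 5 held it. AGGAAG, which overlaps it, also stood in 8 windows (35.4% of all). TGTGGT, a RUNX motif, was found for *Lat*, *Lck* and *Zap70* (16.8% of all windows). For *Lat* and *Lck* it stood at the gene start. For *Zap70* it stood only in the window 2467 bp inside the gene, not in the one printed above. CTTTGAT, a TCF and LEF motif, was found for *Cd3d* (3.73%), and TGACGT, a CRE half-site, for *Cd3e* and *Zap70* (7.51%). These motifs were chosen after the sequences were seen, and a match describes letters in the window, not binding.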

How the data were processed

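RNA-seq (3 libraries labelled WT, 3 cKO) and ATAC-seq (2 and 2) were grouped by the sample labels. For the deposited TPM table the authors trimmed reads with Trimmomatic, quantified GENCODE transcripts of GRCm38 with Salmon 1.0.0 and summed them to genes with tximport, without scaling between libraries. TPM keeps no depth, so counting error is unknown. For ATAC-seq the authors aligned with Bowtie2 2.3.5.1, and the deposited region values are log2 means of normalised reads over a group from DiffBind. MACS2 2.2.5 is named in the submitters' processing notes, and the peak lists give positions alone. The deposited fold changes, p-values and false discovery rates of the authors' own comparisons (DiffBind, and DESeq2 1.26.0) were not used.

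Here log2(TPM + 1) was fitted with limma 3.58.1 (R 4.3.3), two-sided, with a trend in the prior variance. Benjamini-Hochberg adjustment ran over the 17555 genes that reached 1 TPM in 3 or more libraries. The limma fit, and no other step, was tested on simulated data. Exact permutation tests used scipy 1.17.1. Gene positions came from RefSeq (GRCm38.p6), and starts in the region and peak files, which count from 0, were printed 1-based. All 10 genes were named, and from each list the 3 genes of highest mean TPM, any gene past an adjusted p of 0.05 and any gene moving against its list at an unadjusted p under 0.05 could be named, with the 10 genes of most similar profile, *Arid1a* and *Thy1*. The genes and lists were chosen with earlier results of these data known. Of these lists, *Pou4f1*, *Pou4f2*, *Rbpms*, *Sncg*, *Slc17a6*, *Nefl*, *Nefm*, *Nefh*, *Stmn2*, *Mcpt4*, *Gp9* and *Cd8a* were named after their values were seen.

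The labels give WT and cKO libraries shared replicate numbers without saying what a number stands for. Deviations from the group means correlated between same-numbered RNA-seq libraries (r = 0.334, 0.101 and 0.425 for numbers 1 to 3). Between libraries of different numbers r ran from -0.386 to 0.193. The highest of these, WT replicate 1 with cKO replicate 2, was above the value for number 2. The numbers were thus only a hint of pairs. The main fit and its p-values used no pairing. Pairs entered only the replicate block and the comparisons between same-numbered libraries. Alternatives were another pseudocount, other filters, another scaling, the replicate block, no trend, each library left out, other distances to a gene end and a stricter overlap of peaks.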

Additional observations from a re-analysis of the deposited data

How the results depend on the processing

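The log2 fold changes of the 10 genes kept their direction in 120 of 120 values under the alternatives, from -2.68 to -0.63, with adjusted p between 0.0585 and 0.669 (limma), and 0 of 10 passed an adjusted p of 0.05 in any of them. With 1 library left out, 8 to 10 genes were lower at an unadjusted p under 0.05 (limma). The share of all genes tested was then 3.97% to 7.9%. The number without overlap was 8 to 10, and both numbers were 10 without WT replicate 2. With a library fewer a lack of overlap is easier to reach, and its share over all genes was not counted in those settings. With the replicate number as a block, 9 genes were lower at an unadjusted p under 0.05 (8.52% of all genes tested) and 0 at an adjusted one. The log2 fold change of *Cd3e* was then -2.41 (adjusted p = 0.0585, limma), and the block changed no call among the 10. For the ATAC-seq regions no pairing could be tried and no library left out, since only group values are given. Scaling by the median of ratios moved the median over all genes tested from 0.16 to 0.01 (log2), that of the 10 genes to -2.19, and the share of calls at an unadjusted p under 0.05 that were higher from 64.9% to 44.2%.

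The 27 pathway genes lower at an unadjusted p under 0.05 (limma) became 15 to 33 with 1 library left out. The number was 15 without WT replicate 1 (6.74% of all genes tested) and 16 without cKO replicate 2 (3.97%). It was 17 without WT replicate 3 (5.13%) and 33 without WT replicate 2 (7.9%). Counting V segments from a TPM of 5 gave a mean of 32.3 in WT in place of 60.3, and of 9 in cKO in place of 42. Within 3000 bp of a gene end, 6 genes had a peak in WT replicate 1 (74.9% of genes tested), 4 in WT replicate 2 (66.9%), 5 in cKO replicate 1 (30.7%) and 2 in cKO replicate 2 (32.3%). With an overlap of 50% of each peak, 1 gene (*Cd3d*) had a peak shared by both WT libraries. Relative to the median of all regions, the log2 difference was -0.35 at *Cd3d* and 0.52 at *Cd3e*, by construction of that scale. The cause of the other shifts was not tested. The ratios to *Cd3e* were also compared within numbered pairs, an alternative chosen after seeing the data, with p from 0.25 to 1 (exact test).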
